A study of Mus musculus with 16 samples.

Results

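Neuropilins and class 3 semaphorins are a receptor and ligand system for which 9 murine genes were examined, the receptors Nrp1 and Nrp2 and the ligands Sema3a to Sema3g. Each gene was represented by 1 probe set naming it alone in the platform annotation, so 9 of the 22179 genes named in this way on the array were described, and 5 of the 9 were among the 10135 of 40543 probe sets that passed a filter on signal and variability. RNA came from xenografts of LA-N-1, a human neuroblastoma cell line with MYCN amplification, grown under the skin of female athymic nude mice that were 4 to 6 weeks old, and the array carries mouse probes. The treated mice received cinacalcet, labelled as an allosteric activator of the calcium-sensing receptor (CaSR), by gavage at 10 mg/kg per day until the tumor reached 2 cm3. Of the 8 cinacalcet tumors, 3 (C9, C10 and C11) had the longest exposure and form the prolonged group, and 4 (C4, C5, C7 and C8) had shorter exposure. C6 was left out of group values, since the methods judged this sample an outlier by distance and intensity. The study also ran human arrays, and the methods do not say which array decided. The 8 vehicle tumors are V5 to V12, and the tumors of both groups were those taken out last. Treatment ended when a tumor reached its final volume, so length of exposure and slow growth cannot be told apart. All tumors came from 1 cell line, and athymic mice lack mature T cells while they keep vessels, fibroblasts and myeloid cells. Whether human transcripts also bound the mouse probes was not tested.

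Class 3 semaphorins are the secreted members of the semaphorin family. They were first described as repellent cues for growing axons, and most of them bind a neuropilin, which has a short cytoplasmic tail and passes the signal on through a plexin in the same complex. Sema3e is the exception, since it binds plexin D1 directly. Neuropilins also serve as co-receptors of vascular endothelial growth factors, Nrp1 mainly on arterial endothelium and Nrp2 mainly on venous and lymphatic endothelium, and both are found on other cells, myeloid cells among them. In tumors the family is known for its effects on vessels and on the entry of macrophages.

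Nrp2 was the 1 member whose groups differed before adjustment, and its upstream sequence is shown for that reason. The 250 bases before its start in RefSeq, at chr1:62703067-62703316 on the plus strand of GRCm38.p6, are given with GC boxes, the letters GGGCGG or CCGCCC on the strand shown, in capitals.
Nrp2 upstream: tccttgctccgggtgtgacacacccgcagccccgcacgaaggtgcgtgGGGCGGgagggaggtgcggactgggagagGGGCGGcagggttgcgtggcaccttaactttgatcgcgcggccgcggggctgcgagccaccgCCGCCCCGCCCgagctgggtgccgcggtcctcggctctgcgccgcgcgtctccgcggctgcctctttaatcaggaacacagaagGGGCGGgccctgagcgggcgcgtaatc
This window held 5 GC boxes, of which the pair read as CCGCCC share a letter, and 72.4% of its bases were G or C. Of 32851 such windows in the RefSeq table, 32.7% held at least 1 GC box and the median G and C content was 52.4%. Sequence was matched for 7 of the 9 members, and 5 of these 7 held a GC box, with 1 in Nrp1, 3 in Sema3c, 2 in Sema3e and 1 in Sema3g and none of these letters in the windows of Sema3a and Sema3d. These matches describe letters and no binding was measured. The windows of Nrp1 and Sema3a lay inside the RefSeq span of the gene, and that of Sema3d reached into it. For these genes the window is therefore not the sequence before the first position of the gene.

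Signal is given on the log2 scale after the RMA (Robust Multi-array Average) procedure, and levels of different probe sets were not compared with each other. To judge which members were measured above background, 13 genes not used in tumor or stroma, such as those of photoreceptors and sperm, served as a reference, with mean signals between 0.63 and 1.71 over the 15 tumors used. The mean lay above that range for 7 members, at 5.16 for Nrp1, 5.67 for Nrp2, 4.71 for Sema3f, 2.51 for Sema3c, 2.25 for Sema3g, 1.93 for Sema3d and 1.78 for Sema3b. Sema3a (1.45) and Sema3e (1.55) lay inside it and failed the filter on signal. Sema3b and Sema3f failed the filter on variability, and these 4 members were therefore read from the fit without a filter. In 1 tumor the background gene Gnat1 reached 2.57, above the means of Sema3c, Sema3g, Sema3d and Sema3b. Detection of those ligands is therefore less certain than that of the receptors and Sema3f. Marker means of fibroblasts, endothelial cells, mural cells and macrophages were well above background, with 8 of 8 genes of each list above the highest background gene. V5 and V11 had the lowest mean over these 4 lists, 4.00 and 4.80, against 4.84 to 6.09 over the 7 cinacalcet tumors and 5.15 to 6.16 over the other vehicle tumors.

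**Figure D1:**
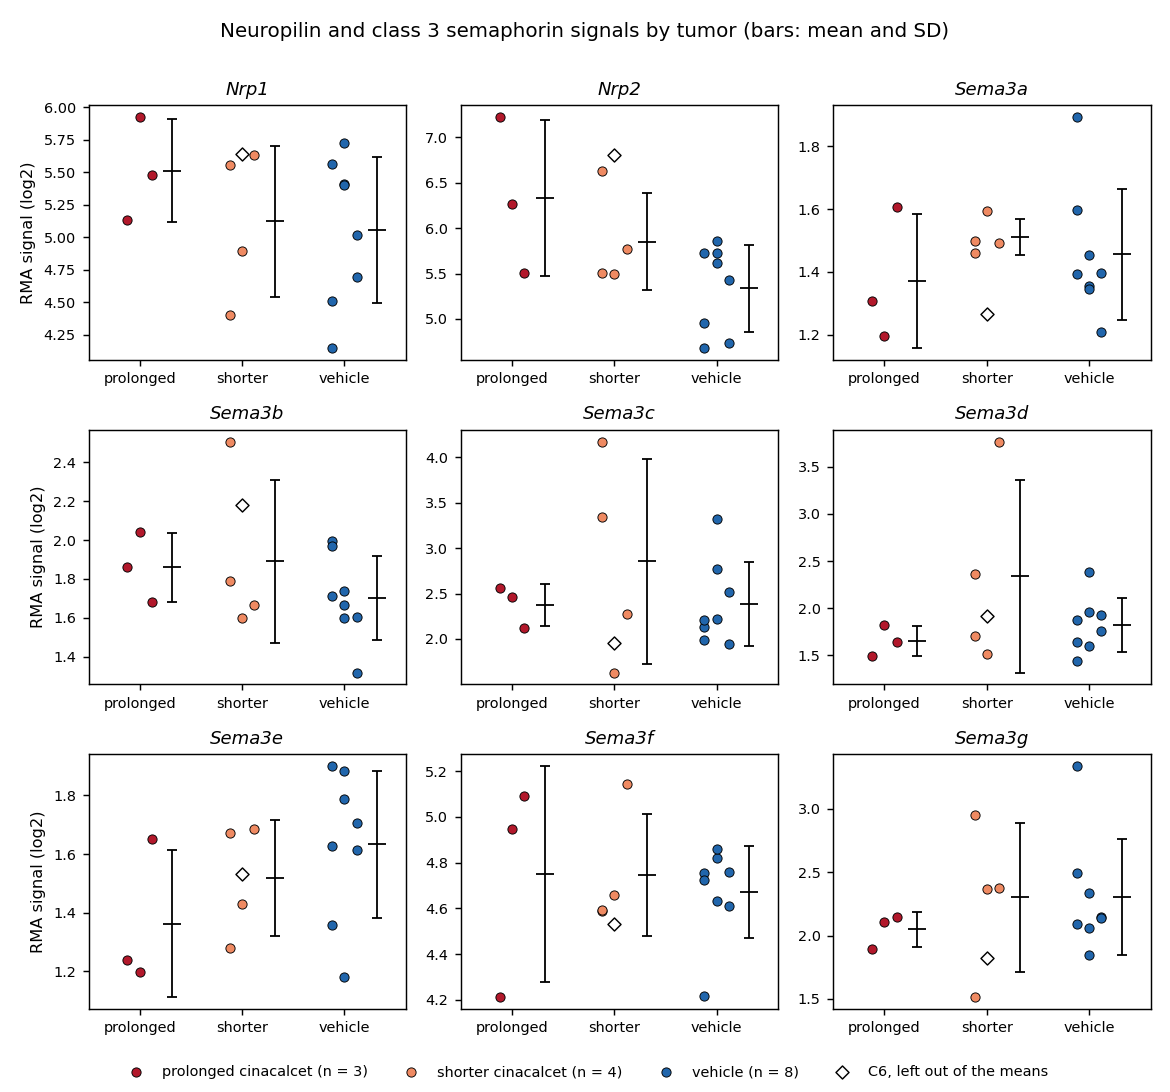
RMA signal (log2) of each of the 9 genes in every tumor, with 3 prolonged, 4 shorter and 8 vehicle tumors as points, the mean and SD of each group as bars, and C6 as an open diamond. Each panel has its own vertical axis. The Nrp2 values of C4, C9 and C10 lie above every vehicle tumor, and in the other 8 genes 0 to 3 cinacalcet tumors do so.

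Nrp2, the receptor of Sema3f and co-receptor of VEGF-C, had signals of 7.22, 6.27 and 5.50 in the prolonged tumors C9, C10 and C11. It had 6.63, 5.50, 5.77 and 5.51 in the shorter tumors C4, C5, C7 and C8. In vehicle tumors the lowest value was 4.68 (V5), the median 5.52 and the highest 5.86 (V6). C9, C4 and C10 thus stood above the whole vehicle range, while the other 4 cinacalcet tumors lay inside it, near or above its median. Nrp2 averaged 6.06 ± 0.68 in cinacalcet tumors and 5.34 ± 0.48 in vehicle tumors (SD, n = 7 and 8), a log2 difference of 0.72 (95% interval 0.09 to 1.35) or 1.64-fold. Each of the 7 cinacalcet tumors exceeded the mean of vehicle tumors (limma, standard error 0.30, unadjusted p = 0.0275, adjusted p = 0.917, Benjamini-Hochberg over the probe sets kept). An exact two-sided permutation test of this gene alone gave p = 0.0323 before any adjustment. The study itself listed Nrp2 among genes chosen on these same tumors, so this difference is not independent evidence.

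Nrp1, the receptor of Sema3a and co-receptor of VEGF-A, had signals of 5.13, 5.92 and 5.48 in the prolonged tumors C9, C10 and C11. It had 5.55, 4.90, 5.63 and 4.40 in the shorter tumors C4, C5, C7 and C8, and a lowest value of 4.15 (V5), a median of 5.21 and a highest of 5.73 (V6) in vehicle tumors. The groups overlapped almost fully, with C10 alone above the vehicle range. Nrp1 averaged 5.29 ± 0.52 in cinacalcet tumors and 5.06 ± 0.56 in vehicle tumors (SD, n = 7 and 8), a log2 difference of 0.23 (95% interval -0.37 to 0.83, limma, unadjusted p = 0.432, adjusted p = 0.919). This difference was smaller than the spread between tumors of either group. C9, the tumor of highest Nrp2, had the lowest Nrp1 of the prolonged group.

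To compare the receptors within each tumor, the log2 signal of Nrp1 was subtracted from that of Nrp2, a measure chosen after the values had been seen. The result was 2.09, 0.35 and 0.02 in C9, C10 and C11, and 1.07, 0.60, 0.14 and 1.11 in C4, C5, C7 and C8. In vehicle tumors it ran from -0.28 to 0.74. C9, C8 and C4 stood above that range. The mean was 0.77 ± 0.72 in cinacalcet tumors and 0.28 ± 0.31 in vehicle tumors (SD, n = 7 and 8), a difference of 0.49 that did not pass 0.05 (exact permutation test, two-sided, p = 0.0967). With C6 included, whose value was 1.17, the difference was 0.54 (exact permutation test, p = 0.0545). A larger response of Nrp2 than of Nrp1 was therefore not established.

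Among the ligands with a mean above that of the background genes, Sema3f, a ligand of Nrp2, had signals of 4.21, 4.95 and 5.09 in the prolonged tumors C9, C10 and C11. The shorter tumors had 4.59 in C4, 4.66 in C5, 5.14 in C7 and 4.59 in C8, and vehicle tumors ran from 4.22 (V11) through a median of 4.74 to 4.86 (V12). C7, C10 and C11 lay above the vehicle range and C9 just below it, so the cinacalcet tumors were spread to both sides. The mean was 4.75 ± 0.33 in cinacalcet tumors and 4.67 ± 0.20 in vehicle tumors (SD, n = 7 and 8), a log2 difference of 0.08 (95% interval -0.23 to 0.38, limma without a filter, unadjusted p = 0.605). That value was smaller than the spread between tumors and turned to -0.06 when the arrays were quantile normalized again.

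Sema3c, a ligand of both neuropilins with a known role in the developing heart outflow tract, varied most among cinacalcet tumors. It had 2.56, 2.46 and 2.12 in the prolonged tumors C9, C10 and C11, and 4.17, 1.63, 2.27 and 3.34 in the shorter tumors C4, C5, C7 and C8. Vehicle tumors ran from 1.95 (V7) through a median of 2.21 to 3.32 (V9). C4 stood above every other tumor and C5 below every vehicle tumor. Cinacalcet tumors averaged 2.65 ± 0.85 and vehicle tumors 2.39 ± 0.46 (SD, n = 7 and 8), a log2 difference of 0.26 (95% interval -0.43 to 0.96, limma, unadjusted p = 0.439) that became 0.0097 without C4.

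Sema3d, a ligand known from vein and lymphatic patterning, had 1.49, 1.82 and 1.65 in the prolonged tumors C9, C10 and C11. In the shorter tumors it had 2.36 in C4, 1.51 in C5, 3.77 in C7 and 1.71 in C8, and vehicle tumors ran from 1.44 (V8) through a median of 1.81 to 2.38 (V6). C7 alone stood apart, and the other 6 cinacalcet tumors lay inside the vehicle range. The log2 difference between cinacalcet and vehicle tumors was 0.22 (95% interval -0.42 to 0.86, limma, unadjusted p = 0.480), and it turned to -0.07 without C7.

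Sema3g, an endothelial ligand of Nrp2, had 1.89, 2.11 and 2.15 in the prolonged tumors C9, C10 and C11. It had 1.51, 2.37, 2.37 and 2.95 in the shorter tumors C4, C5, C7 and C8, and ran from 1.85 (V6) through a median of 2.14 to 3.34 (V11) in vehicle tumors. All cinacalcet tumors other than C4 lay inside the vehicle range, and C4 lay below it. The log2 difference was -0.11 (95% interval -0.66 to 0.43, limma, unadjusted p = 0.668), and it turned to 0.03 without V11.

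Sema3b, a ligand known as a candidate tumor suppressor in lung cancer, was weak but above the background genes on average. It ran from 1.60 (C5) through a median of 1.79 to 2.51 (C8) in cinacalcet tumors and from 1.32 (V7) through 1.69 to 2.0 (V5) in vehicle tumors, a log2 difference of 0.18 (95% interval -0.12 to 0.48, limma without a filter, unadjusted p = 0.232). The classic axon repellent Sema3a ran from 1.20 to 1.61 in cinacalcet tumors and from 1.21 to 1.89 in vehicle tumors, and the plexin D1 ligand Sema3e from 1.20 to 1.69 in cinacalcet tumors and from 1.18 to 1.90 in vehicle tumors. These last ranges sit at the level of the background genes, so the differences of -0.0048 for Sema3a and -0.18 for Sema3e (limma without a filter, unadjusted p = 0.966 and 0.183) describe signal near background.

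Over the 9 members, 6 had a positive and 3 a negative difference between cinacalcet and vehicle tumors, with a median of 0.18 on the log2 scale against -0.02 over all probe sets and 0.09 over those kept. None of the 9 passed an adjusted p of 0.05 in limma (adjusted p from 0.909 to 0.998), as was the case for 0% of all probe sets. At an unadjusted p under 0.05, 1 of 9 members, Nrp2, was higher and 0 were lower, where 4.31% of the probe sets kept by the filter and 5.11% of all probe sets were called in either direction. One member in 9 cannot be read as more than that background share. Leaving out V5, V7, C4 or C9 in turn ended this unadjusted call, with log2 differences of 0.62, 0.63, 0.62 and 0.52 and limma p-values of 0.0558, 0.0570, 0.0632 and 0.0781. With V5 and V11 left out together, a setting chosen after seeing the data, the difference of Nrp2 was 0.54 (limma, unadjusted p = 0.103) and that of Nrp1 was -0.01.

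**Figure D2:**
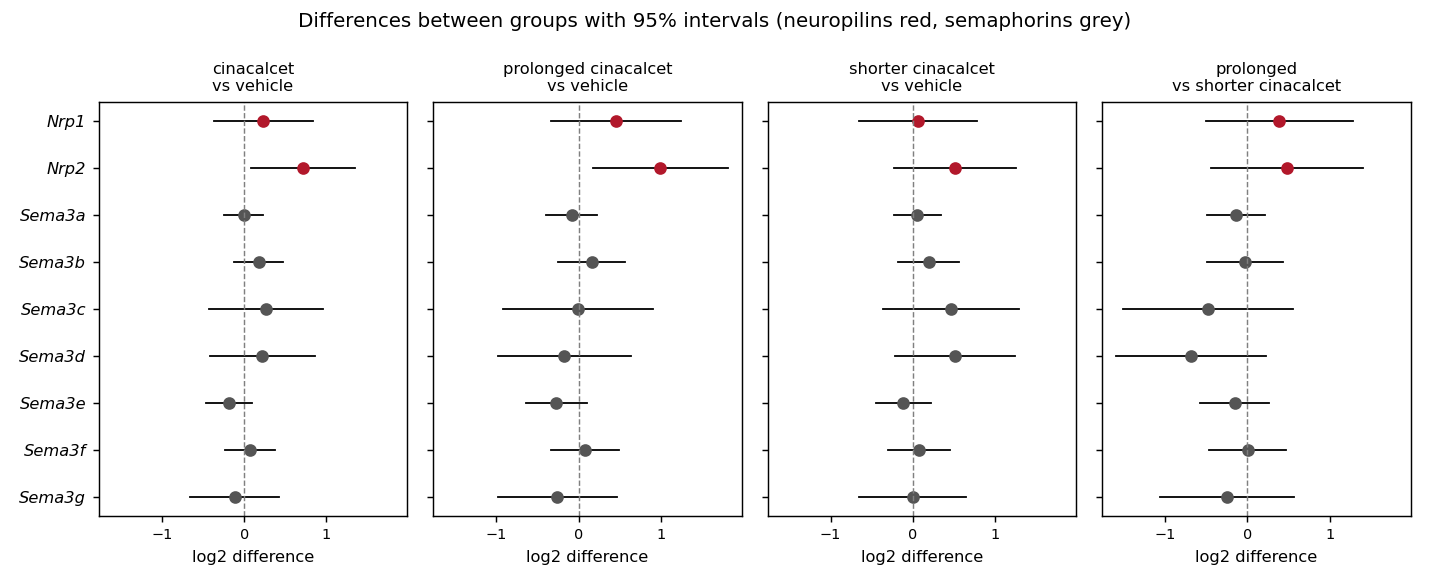
Log2 difference of each gene in the 4 comparisons, as points with 95% intervals from limma, neuropilins in red and semaphorins in grey, with a dashed line at 0. The intervals of Nrp2 lie above 0 in cinacalcet against vehicle (0.09 to 1.35) and in prolonged cinacalcet against vehicle (0.17 to 1.81), and every other interval includes 0.

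To see whether the exposures differed, prolonged and shorter tumors were set against the same 8 vehicle tumors, which the comparisons share. Nrp2 averaged 6.33 ± 0.86 in prolonged and 5.34 ± 0.48 in vehicle tumors (SD, n = 3 and 8), a log2 difference of 0.99 (95% interval 0.17 to 1.81) or 1.99-fold. Each of the 3 prolonged tumors exceeded the mean of vehicle tumors, and C9 and C10 exceeded all of them (limma, unadjusted p = 0.0204, adjusted p = 0.580). An exact permutation test gave p = 0.0364, where the smallest p that 3 against 8 tumors allow is 0.00606. C9 carried much of the size, since the difference was 0.55 without it (limma, unadjusted p = 0.214) and 1.41 without C11. Array weights reduced the difference to 0.73 (limma, unadjusted p = 0.0674), and leaving out V5 and V11 together gave 0.82 (limma, unadjusted p = 0.0556). In shorter tumors Nrp2 averaged 5.85 ± 0.53 (SD, n = 4), a log2 difference from vehicle of 0.51 (95% interval -0.23 to 1.25, limma, unadjusted p = 0.165). Nrp1 differed from vehicle by 0.45 in prolonged tumors (limma, unadjusted p = 0.245) and by 0.06 in shorter tumors (limma, unadjusted p = 0.854).

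Prolonged and shorter tumors were then compared directly. The log2 difference was 0.48 for Nrp2 (95% interval -0.44 to 1.41, limma, unadjusted p = 0.290) and 0.39 for Nrp1 (95% interval -0.51 to 1.29, limma, unadjusted p = 0.373). Both intervals include 0 and also values over 1, so the length of exposure was not shown to matter for either receptor. For Sema3d the difference was -0.69 (limma, unadjusted p = 0.132) and for Sema3c -0.48 (limma, unadjusted p = 0.346), with all 3 prolonged tumors below the shorter group's mean for both genes. These values followed C7 for Sema3d and C4 for Sema3c, and were -0.21 without C7 and -0.04 without C4. Against vehicle, prolonged tumors differed by -0.17 for Sema3d and -0.0084 for Sema3c. Shorter tumors differed from vehicle by 0.51 for Sema3d and 0.47 for Sema3c (limma, unadjusted p = 0.157 and 0.251). The remaining ligands, Sema3a, Sema3b, Sema3e, Sema3f and Sema3g, lay between -0.27 and 0.19 in these 3 comparisons, with no unadjusted p under 0.05.

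None of the 9 members passed an adjusted p of 0.05 in limma in any of the 3 comparisons by exposure, and the same held for 0% of probe sets. At an unadjusted p under 0.05, Nrp2 was the 1 member called in prolonged against vehicle tumors, where 8.3% of probe sets kept and 7.14% of all probe sets were called. In shorter against vehicle tumors 0 members were called, with 2.6% of probe sets kept and 3.67% of all. In prolonged against shorter tumors 0 members were called, with 5.38% of probe sets kept and 5.52% of all. Without C5, 2 members (Sema3c and Sema3d) were called in shorter against vehicle tumors and 1 (Sema3d) in prolonged against shorter tumors, none after adjustment.

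Host cell content varied widely between the tumors, and the receptors were set against marker means of 6 cell types. In bulk tumor RNA, fewer cells of a type and less RNA per cell cannot be told apart. Macrophage markers averaged 5.84 ± 0.78 in cinacalcet tumors and 5.46 ± 1.02 in vehicle tumors (SD, n = 7 and 8), with ranges of 4.66 to 6.70 in cinacalcet and 3.82 to 6.42 in vehicle tumors (exact permutation test, p = 0.434). All 8 macrophage genes were measured and 8 of 8 had a higher mean in cinacalcet tumors, none of them at an unadjusted p under 0.05. This was not particular to macrophages. A higher mean was also found for 7 of 8 genes in each of the fibroblast, endothelial and mural lists and 6 of 6 neutrophil genes. It was found for 3 of 6 Schwann genes and 1 of 5 adipocyte genes. The macrophage mean was 6.21 in prolonged tumors and 5.56 in shorter tumors. C10 stood apart in the mean of neuroblast lineage markers, of which 6 of 8 genes were measured and 5 lay above the highest background gene. The mean was 4.38 in C10, 2.40 to 2.74 in the other 6 cinacalcet tumors and 2.23 to 2.90 in vehicle tumors. C10 had the highest Nrp1 and was 1 of the 3 cinacalcet tumors above the vehicle range of Nrp2. Without it the log2 difference between cinacalcet and vehicle tumors was 0.13 for Nrp1 (limma, unadjusted p = 0.678) and 0.68 for Nrp2 (limma, unadjusted p = 0.0477). Fibroblast markers averaged 6.60 ± 0.62 in cinacalcet and 6.29 ± 1.20 in vehicle tumors, and endothelial markers 4.27 ± 0.45 in cinacalcet and 4.19 ± 0.31 in vehicle tumors (SD, n = 7 and 8).

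Across the 15 tumors, Nrp1 rose with 4 of the 6 marker means. Its Pearson r was 0.87 with macrophages (permutation p = 0.0001, adjusted p = 0.0054 over 54 relations of members with lists, Spearman rho = 0.69). It was 0.79 with fibroblasts (permutation p = 0.00035, adjusted p = 0.00832, rho = 0.79), 0.77 with mural cells (permutation p = 0.00068, adjusted p = 0.00832, rho = 0.84) and 0.70 with endothelial cells (permutation p = 0.0037, adjusted p = 0.0333, rho = 0.75). Without the 2 tumors farthest from the median of each marker mean, r was 0.77, 0.70, 0.67 and 0.63 in that order. Nrp1 also tended to rise with the named probe sets that passed the filter on signal and variability, since its median r with them was 0.49. Within the 7 cinacalcet tumors the macrophage relation had r = 0.70 and within the 8 vehicle tumors r = 0.97.

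Nrp2 passed with 1 marker mean, that of macrophages, at r = 0.77 (permutation p = 0.00055, adjusted p = 0.00832, rho = 0.85). The relation was 0.82 within cinacalcet tumors and 0.86 within vehicle tumors, and 0.67 without V5 and V11. With fibroblasts r was 0.66 (permutation p = 0.0102, adjusted p = 0.0663), although the rank correlation passed (rho = 0.83, adjusted permutation p = 0.00391). With lymphatic endothelial cells r was 0.31 (permutation p = 0.246, adjusted p = 0.517, rho = 0.51) and 0.69 without V9 and V8. That relation was 0.58 within cinacalcet and 0.29 within vehicle tumors. With Schwann cells r was -0.02 (permutation p = 0.939, rho = -0.07). With endothelial cells r was 0.07 (permutation p = 0.796, rho = 0.36) and with mural cells 0.21 (permutation p = 0.458, rho = 0.50). Within groups these last relations pointed in opposite directions, with r = -0.42 in cinacalcet and 0.77 in vehicle tumors for endothelial cells and r = -0.29 in cinacalcet and 0.84 in vehicle tumors for mural cells, a difference between groups that was not tested. C9 combined the highest Nrp2 with an endothelial mean of 3.72, near the lowest of all, and a macrophage mean of 6.65. With macrophage signal as a covariate, chosen after seeing the data, the Nrp2 difference between cinacalcet and vehicle tumors was 0.53 (limma, unadjusted p = 0.0209). Its median r with all named probe sets kept was 0.46.

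**Figure D3:**
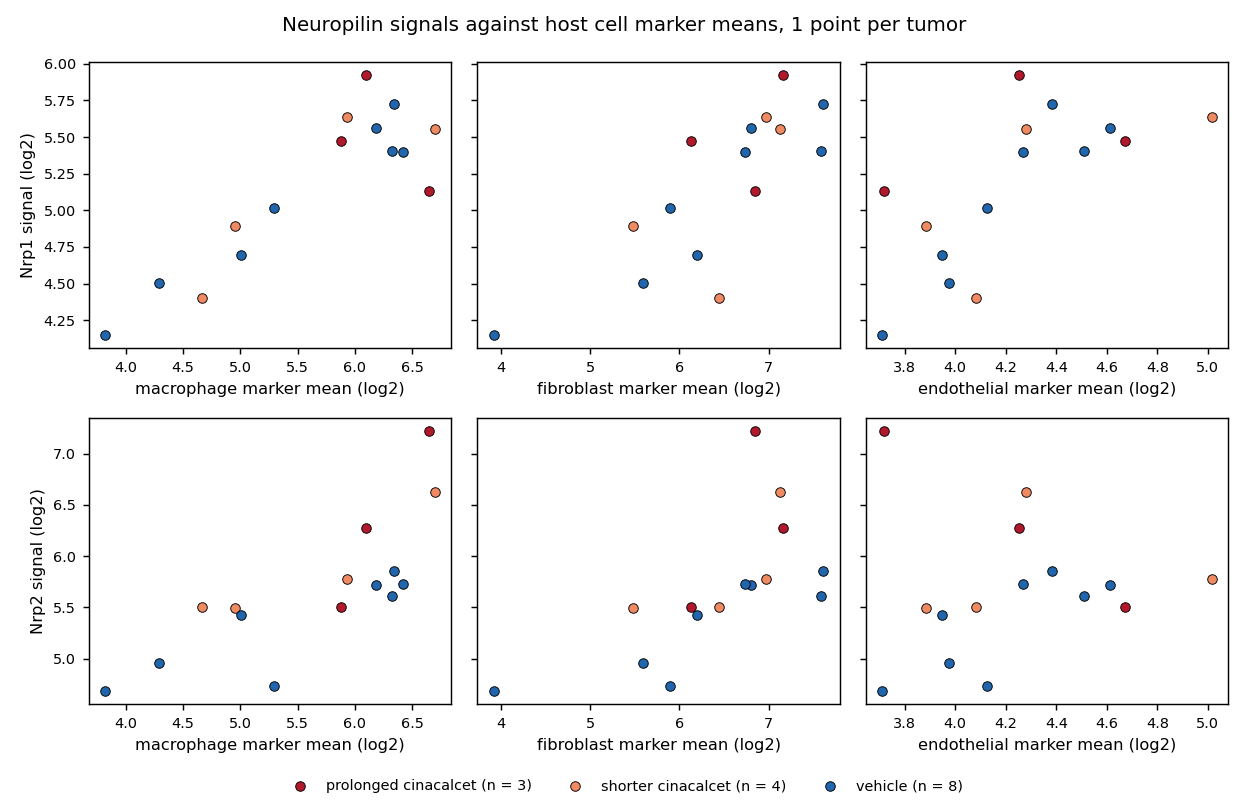
Signal (log2) of Nrp1 in the upper row and Nrp2 in the lower row against the mean log2 signal of macrophage, fibroblast and endothelial markers, with 1 point per tumor (3 prolonged, 4 shorter, 8 vehicle). Nrp1 climbs with all 3 means (r = 0.87, 0.79 and 0.70). Nrp2 climbs with macrophages (r = 0.77) and, on ranks, with fibroblasts (rho = 0.83, r = 0.66). With endothelial cells Nrp2 has r = 0.07 over all tumors, 0.77 within vehicle and -0.42 within cinacalcet tumors, where C9 lies at the upper left.

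Of the ligands, Sema3g passed in the opposite direction, with r = -0.75 against macrophages (permutation p = 0.00077, adjusted p = 0.00832, rho = -0.82, r = -0.72 without V5 and V11). Its median r with all named probe sets kept was -0.39, and Sema3g was highest in V11, a tumor of low host signal. The mean of the background genes was likewise highest in V11 (1.42) and lowest in V9 (0.87). Array medians were highest in V5 (1.85) and V11 (1.82). The part of host content, background level or array median in the Sema3g relation was not tested. No other ligand passed with any list on Pearson's r. On ranks, 4 further relations of ligands passed, those of Sema3c with fibroblasts (rho = 0.75, adjusted permutation p = 0.0160, r = 0.53) and with lymphatic endothelial cells (rho = 0.73, adjusted permutation p = 0.0196, r = 0.50), of Sema3f with mural cells (rho = 0.69, adjusted permutation p = 0.0304, r = 0.63) and of Sema3g with fibroblasts (rho = -0.72, adjusted permutation p = 0.0223, r = -0.50). Among the 36 pairs of members none passed adjustment on r or rho. For Nrp1 with Nrp2 r was 0.56 (permutation p = 0.0289, adjusted p = 0.174, rho = 0.72), falling to 0.45 without V5 and C8, with 0.29 within cinacalcet tumors and 0.84 within vehicle tumors. Between each receptor and its best-known ligand r was -0.41 for Nrp1 with Sema3a (adjusted permutation p = 0.381, rho = -0.31) and -0.13 for Nrp2 with Sema3f (adjusted permutation p = 0.772, rho = 0.05). Sema3a lay at the level of the background genes, so its r with Nrp1 describes signal near background.

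The genes most like each receptor were read from 5288 kept probe sets naming 1 gene, by Pearson's r over the 15 tumors and without a test. For Nrp2 they were Lpcat2, an enzyme of phosphatidylcholine and platelet-activating factor synthesis (0.92), Ctla2b (0.92), Uggt1, a folding sensor of the endoplasmic reticulum (0.91), Pla1a, a phospholipase (0.91), and Susd6 (0.91). For Nrp1 they were Igfbp7, a secreted binding protein of the vessel wall (0.96), the ribosomal protein gene Rpl4 (0.96), Gm8580 (0.95), Smim15 (0.95) and the tetraspanin Cd81 (0.94). The lists share no gene, and the genes nearest to Nrp2 had r from 0.44 to 0.68 with Nrp1.

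Partners of the system were read from lists of 9 plexins, 13 semaphorins of other classes, 8 VEGF ligands and receptors and 20 genes of semaphorin signalling, all measured. No gene of these 50 passed an adjusted p of 0.05 in limma in any comparison. Between cinacalcet and vehicle tumors the plexins had 0 higher and 1 lower at an unadjusted p under 0.05, and a median difference of 0.20 on the log2 scale against -0.02 over all probe sets. The 1 plexin was Plxnb3, at 1.43 ± 0.13 in cinacalcet and 1.82 ± 0.31 in vehicle tumors (SD, n = 7 and 8), a log2 difference of -0.39 (limma without a filter, unadjusted p = 0.00941, adjusted p = 0.909) at a signal near that of background genes. Plxnb1 followed with -0.20 and Plxnc1, a receptor of Sema7a, with 0.42 (limma, unadjusted p = 0.0774 and 0.276).

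Of the 13 other semaphorins, 0 were higher and 2 lower at an unadjusted p under 0.05, with a median of 0.11. Sema4b, a transmembrane semaphorin, stood at 2.38 ± 0.23 in cinacalcet and 2.69 ± 0.18 in vehicle tumors (SD, n = 7 and 8), a log2 difference of -0.32 (limma without a filter, unadjusted p = 0.0156, adjusted p = 0.909). Sema5b, which the study also listed, differed by -0.49 (limma without a filter, unadjusted p = 0.00145, adjusted p = 0.909). Sema4d, a ligand of plexin B1, differed by 0.52 (limma, unadjusted p = 0.129).

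The VEGF list had 0 higher and 0 lower, with a median of 0.15. Its smallest p-values were those of Vegfb (-0.16), the receptor Flt1 (0.30) and Vegfa (0.25), with limma unadjusted p = 0.159, 0.254 and 0.324. Of the 20 signalling genes, 1 was higher and 0 lower, with a median of 0.09. This gene was Dpysl2, which encodes CRMP2, the collapsin response mediator on microtubules, at 6.22 ± 0.35 in cinacalcet and 5.74 ± 0.36 in vehicle tumors (SD, n = 7 and 8), a log2 difference of 0.48 (limma, unadjusted p = 0.0492, adjusted p = 0.917). Nrcam, a cell adhesion molecule that associates with Nrp2, differed by 0.20 at a signal near background and Dpysl3 by 0.59 (limma, unadjusted p = 0.147 and 0.158). The share of genes called in these lists, 1 of 9, 2 of 13, 0 of 8 and 1 of 20, stands beside 5.11% of all probe sets.

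In prolonged against vehicle tumors the plexins and the VEGF list had 0 called. The other semaphorins had 2 higher and 1 lower, and the signalling genes 2 higher and 1 lower, beside 7.14% of all probe sets. Dpysl3 averaged 5.54 ± 1.74 in prolonged and 4.38 ± 0.39 in vehicle tumors, and Sema4d 3.78 ± 1.13 in prolonged and 2.82 ± 0.39 in vehicle tumors (SD, n = 3 and 8), with a wide spread among the 3 prolonged tumors. Sema4a was the other semaphorin called higher, at 3.75 ± 1.61 in prolonged and 2.65 ± 0.44 in vehicle tumors. Gsk3b, a kinase that phosphorylates CRMP2, had the smallest p of the 6 genes called and a narrower spread, at 6.39 ± 0.35 in prolonged and 5.87 ± 0.21 in vehicle tumors (SD, n = 3 and 8), a log2 difference of 0.52 (limma without a filter, unadjusted p = 0.0156, adjusted p = 0.678). Sema5b (-0.44) and L1cam, a partner of Nrp1 in axon guidance (-0.40), were lower (limma without a filter, unadjusted p = 0.0225 and 0.0240). In shorter against vehicle tumors 0 genes were higher and 3 lower, beside 3.67% of all probe sets. They were Sema4b (-0.48), Sema5b (-0.54) and Plxnb3 (-0.49), with limma p-values, without a filter and unadjusted, of 0.00141, 0.00367 and 0.00660. In prolonged against shorter tumors Sema4b (0.37) and Gsk3b (0.56) were higher and 0 genes lower (limma without a filter, unadjusted p = 0.0288 and 0.0190), beside 5.52% of all probe sets.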

How the data were processed

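RNA of 16 xenografts was hybridized to Affymetrix Mouse Gene 2.1 ST arrays. The authors deposited log2 signals after RMA background correction, quantile normalization and summarization, with limma 3.24 and R 3.2 named in the submitters' processing notes. RMA is meant to make array distributions alike, which would shrink any shift common to most of the array. The deposited arrays were not fully alike, with medians of 1.58 to 1.76 in cinacalcet tumors and 1.59 to 1.85 in vehicle tumors. Depth does not apply to arrays, whose number limits the precision. Groups came from the labels, and exposure from the tumor numbers given by the paper. The methods' removal of low (50%) signal and low (50%) variability was read as lowest mean signal first, then lowest SD of the rest. Models were fitted with limma 3.58.1 in R 4.3.3 with Benjamini-Hochberg adjustment over 10135 probe sets, and members that failed the filter were read from the fit over 40543. Single values were compared by exact permutation of tumors and correlations by 100000 permutations, each two-sided. P-values of group differences judge a difference against the variation between these tumors, and limma also draws on the variances of the other probe sets fitted. Symbols came from the platform annotation, matched to RefSeq for 23255 of 23448 probe sets naming 1 gene, with 0 changed, and upstream sequence from RefSeq GRCm38.p6. No table of protein sequence was used here. The members and all lists were chosen with earlier results of these data known. The genes named were the 9 members, the 5 genes most like each receptor, and up to 3 members of smallest p per partner list in cinacalcet against vehicle, and any others were named after their values were seen. Marker lists of 8 fixed genes were used per host cell type, and others (lymphatic endothelium, Schwann cells and neuroblast lineage, adipocyte, muscle, neutrophil and keratinocyte) were checked. Scripts were tested on simulated data, and figures were drawn with matplotlib 3.10.9. Alternatives covered the filter, variance model, array weights, normalization, C6, a replicate block, host covariates and each tumor left out. Tumors were not treated as paired by replicate number in the main fits. Deviations of same-numbered tumors correlated from -0.20 to 0.32, which cannot decide whether the numbers pair tumors.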

Additional observations from a re-analysis of the deposited data

Results flagged for a closer look

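The 9 genes were each examined in cinacalcet, shorter and vehicle tumors, 27 groups in all. In 4 of them 1 tumor stood far from the rest, C7 or V11 in each case. Chance alone gives this in about 5% of groups. The shorter tumors are also part of the cinacalcet group and all genes share tumors, so the count cannot be judged against that share. Sema3d stood at 3.77 in C7 on the log2 scale, against 2.36 in the next cinacalcet tumor. Sema3f stood at 5.14 in C7, against 4.66 in the next of the shorter tumors. In V11, Sema3f stood at 4.22, below the next vehicle tumor at 4.61, and Sema3g at 3.34, above the next at 2.49. In C6, which entered no group value, 2 of 9 members lay above every vehicle tumor, Nrp2 at 6.81 (highest vehicle tumor 5.86) and Sema3b at 2.18 (highest vehicle tumor 2.0). The share of all probe sets that did so in C6 was not computed, so this count cannot be read as a result about the members.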

How the results depend on the processing

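No member passed an adjusted p of 0.05 in limma in any comparison under any alternative run. The 1 unadjusted call between cinacalcet and vehicle tumors, Nrp2, became 0 with V5 and V11 left out and ranged from 0 to 1 without 1 tumor. In prolonged against vehicle tumors the 1 call became 0 with array weights and with V5 and V11 left out, and ranged from 0 to 1 without 1 tumor. Without 1 tumor the count ranged from 0 to 2 in shorter against vehicle tumors and from 0 to 1 in prolonged against shorter tumors. Nrp2 stayed higher in every alternative, between 0.52 (without C9) and 0.81 (with C6) for cinacalcet against vehicle. Repeated quantile normalization lowered the Nrp2 differences to 0.59 in cinacalcet and 0.74 in prolonged against vehicle. It lowered that of Nrp1 to 0.096 in cinacalcet against vehicle. With arrays centred on their medians the Nrp2 differences were 0.77 and 1.09. The replicate block used only numbers present in both groups, so C4, V6 and V12 were left out of that fit. With it the differences of Nrp2 were 0.77 and 0.999 in cinacalcet and in prolonged against vehicle. No call of a member changed with the block. Whether the numbers pair tumors was not settled, as 2 of 6 matched best with their own number. The following differences, each smaller than the spread between tumors, turned direction, and the cause was not tested. For cinacalcet against vehicle, Nrp1 became -0.012 with V5 and V11 left out. Sema3a became 0.032 with array weights, 0.050 with repeated quantile normalization, 0.050 with arrays centred on their medians, 0.025 with host signal and 0.035 with macrophage signal as a covariate, and 0.092 with V5 and V11 left out, and ranged from -0.040 to 0.058 without 1 tumor. Sema3f became -0.065 with repeated quantile normalization. Sema3g became 0.027 with macrophage signal as a covariate and 0.090 with V5 and V11 left out, and ranged from -0.24 to 0.034 without 1 tumor, and Sema3d from -0.067 to 0.31. In shorter against vehicle tumors, Nrp1 became -0.015 with array weights, -0.050 with host signal as a covariate and -0.18 with V5 and V11 left out, and ranged from -0.11 to 0.30 without 1 tumor. In prolonged against vehicle tumors, Sema3c became 0.039 with repeated quantile normalization and 0.084 with centred arrays, and ranged from -0.099 to 0.12 without 1 tumor. Of 15 differences of the other ligands by exposure, 9 turned sign in at least 1 alternative and 0 had an unadjusted p under 0.05 in any. Nrp2 minus Nrp1 differed by 0.45 in shorter against vehicle tumors (exact permutation test, p = 0.0707). With C6 counted among the shorter tumors the difference became 0.54 (exact permutation test, p = 0.028). Each gene had 1 probe set, so taking the most variable one changed nothing. The covariate of macrophage signal, the removal of V5 and V11, and Nrp2 minus Nrp1 were chosen after seeing the data. The precision is limited by 7 and 8 arrays per group, and for Sema3a and Sema3e by signal at background.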
